A study of Mus musculus with 13 samples.

Results

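The 10 genes described here encode the E proteins (Tcf3, Tcf4 and Tcf12), their Id inhibitors (Id1, Id2 and Id3), and the T cell oncogenes Lyl1, Tal1, Lmo1 and Lmo2. They were taken by symbol from the 43629 genes of the deposited table, and their values were read in all 13 libraries. None of the 8 that could be tested passed the rule for a changed gene in any comparison. Their levels nevertheless varied between lymphomas of a single genotype, Id1 and Id3 most among the Atm-/- lymphomas and Lyl1 most among the Rag2c/c p53-/- lymphomas. In these groups the SD of the log2 value was larger than that of 98.0% (Id1), 70.7% (Id3) and 84.1% (Lyl1) of the tested genes. The ranks take in tested genes of all levels, and genes of a like level were not compared apart.

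E proteins are basic helix-loop-helix (bHLH) transcription factors that bind DNA as dimers at the E-box motif and drive early T cell genes in the thymus, among them the recombinase genes and the pre-T cell receptor chain gene Ptcra. Id proteins lack the DNA-binding basic region and hold E proteins in dimers that cannot bind DNA. Tal1 and Lyl1 encode tissue-restricted bHLH partners of E proteins, and Lmo1 and Lmo2 encode LIM-only adaptors that join them in larger complexes with LDB1 and GATA factors. Ectopic expression of Tal1, Lyl1, Lmo1 or Lmo2 is a known route to T cell leukemia, and in mice the loss of E protein activity predisposes to thymic lymphoma.

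RNA sequencing covered single-cell suspensions of 5 Atm-/- thymic lymphomas (129S6/SvEv strain), 5 Rag2c/c p53-/- thymic lymphomas (mixed C57BL/6 and 129S6/SvEv background) and 3 wild-type (WT) thymuses (C57BL/6), each from a different mouse. Atm-/- mice lack the DNA damage kinase ATM, Rag2c/c mice carry RAG2 truncated at its C terminus, and p53-/- mice lack p53. Every cell of these animals carries the altered alleles, a suspension can hold other cells besides the tumor, ages are not given in the sources used here, and no thymus of the tumor strains was included. The WT libraries were made for another series and re-used, so genotype, malignancy, strain and series cannot be told apart in a comparison with WT thymus.

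The values are normalized counts, which the authors obtained by dividing the reads of a gene by a scaling factor of its library and rounding. Library totals lay between 19788898 and 21591289, which reflects the scaling and not the depth. In 6 libraries low values skipped whole numbers, which put Rag2c/c p53-/- lymphoma 2 at an estimated 6360000 reads and WT thymus 2 at 6660000, with 9230000 to 13700000 in 4 others. In the remaining 7 libraries a read was worth about 1 normalized count or less. All 8 T cell lineage markers (Cd3d, Cd3e, Cd3g, Lck, Cd4, Cd8a, Cd8b1 and Thy1) were present in each group, with 7 of 8 at a lower mean than WT thymus in both lymphoma groups. They summed to 111235 to 180693 in WT thymus, 68764 to 133009 in Atm-/- lymphomas and 86559 to 165924 in Rag2c/c p53-/- lymphomas, and 6 thymic epithelium markers summed to 725 to 1058 in WT thymus, 189 to 609 in Atm-/- lymphomas and 287 to 1320 in Rag2c/c p53-/- lymphomas. Atm lay between 1559 and 2274 in WT thymus and between 208 and 732 in the Atm-/- lymphomas, without overlap. In the Rag2c/c p53-/- lymphomas it lay between 439 and 1315, also below every WT thymus and overlapping the Atm-/- lymphomas. The lower level is therefore not particular to the Atm-/- genotype. Trp53 and Rag2 transcripts were present in the Rag2c/c p53-/- lymphomas (Trp53 2018 to 5461, Rag2 260 to 790), and a value per gene does not check a partial deletion or a truncation.

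Because E proteins bind the E-box CANNTG, the 250 bases before the RefSeq start of 3 of these genes are shown (GRCm38.p6), with E-boxes in capitals. Id2 and Id3 are the most abundant inhibitor genes, and Lyl1 is the tested oncogene with the widest spread within a lymphoma group. All are written 5′ to 3′ on the strand of the gene.
Id2 (chr12:25096093-25096342, minus strand): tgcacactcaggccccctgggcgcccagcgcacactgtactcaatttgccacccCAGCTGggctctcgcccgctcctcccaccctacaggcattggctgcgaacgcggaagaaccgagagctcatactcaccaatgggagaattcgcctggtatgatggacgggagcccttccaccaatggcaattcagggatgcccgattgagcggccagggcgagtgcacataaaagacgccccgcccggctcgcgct
Id3 (chr4:136143572-136143821, plus strand): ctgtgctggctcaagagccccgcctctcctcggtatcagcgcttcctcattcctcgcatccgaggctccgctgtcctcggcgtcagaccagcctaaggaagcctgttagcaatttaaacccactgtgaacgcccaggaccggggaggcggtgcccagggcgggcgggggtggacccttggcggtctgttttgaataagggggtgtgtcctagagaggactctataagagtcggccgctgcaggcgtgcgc
Lyl1 (chr8:84701207-84701456, plus strand): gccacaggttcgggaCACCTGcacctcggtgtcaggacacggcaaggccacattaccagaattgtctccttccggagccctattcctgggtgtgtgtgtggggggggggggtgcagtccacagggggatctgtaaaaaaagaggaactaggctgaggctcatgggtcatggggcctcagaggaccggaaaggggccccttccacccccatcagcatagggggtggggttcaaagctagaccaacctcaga

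The Id2 window holds CAGCTG 196 bases before the start, the Lyl1 window holds CACCTG 235 bases before it, and the letters CANNTG do not occur in the Id3 window. The Id3 window lies before the RefSeq start but within the gene as the deposited values list it (chr4:136143497-136145755). It is therefore not upstream of the start of the counted gene. A window was found for 7 of the 10 genes (not for Id1, Lmo2 and Tcf4), and in 5 of these 7 it held CANNTG at least once. Over 32851 mouse promoter windows of this length, searched on both strands, 66.2% held CANNTG, 13% held CAGCTG and 17.2% held CACCTG, both of which are forms of CANNTG.

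The E protein genes were abundant in every library. Tcf3 (ENSMUSG00000020167, chr10:80409514-80433647, minus strand) encodes E2A, the main E protein of thymocytes. Its normalized counts were 5676, 7286 and 5841 in WT thymuses 1 to 3, then 8001, 7118, 8232, 8348 and 8636 in Atm-/- lymphomas 1 to 5 and 8007, 7123, 8012, 9067 and 7854 in Rag2c/c p53-/- lymphomas 1 to 5. All 10 lymphomas lay above the WT mean of 6268 ± 886 (SD, n = 3), and the groups overlapped because WT thymus 2, a shallow library, lay above the lowest lymphoma of each genotype.

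Tcf3 had a log2 fold change of 0.37 (SE 0.128, adjusted p = 0.031, limma with Benjamini-Hochberg adjustment) in Atm-/- lymphomas and 0.36 (SE 0.128, adjusted p = 0.041) in Rag2c/c p53-/- lymphomas against WT thymus. These are folds of 1.29 (95% confidence interval 1.07 to 1.57) and 1.28 (1.06 to 1.55), below the 2-fold size that the rule for a changed gene required. Both rested on the choice of libraries. The adjusted p of Tcf3 ran from 0.0099 to 0.144 over 23 fits in Atm-/- lymphomas and was under 0.05 in 17 of them, and it ran from 0.0137 to 0.178 in Rag2c/c p53-/- lymphomas and was under 0.05 in 10 of 23. Without WT thymus 1 the adjusted p values were 0.144 and 0.178, without WT thymus 3 they were 0.129 and 0.161, and without WT thymus 2 the log2 fold changes were 0.48 and 0.47. Between the lymphoma groups Tcf3 differed by 0.01 on the log2 scale (SE 0.111, 95% confidence interval -0.23 to 0.25).

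Tcf3 was also among the steadiest genes within a lymphoma group. The SD of its log2 value was 0.11 in Atm-/- lymphomas, smaller than that of all but 3.69% of the tested genes, and 0.12 in Rag2c/c p53-/- lymphomas, smaller than that of all but 2.46%. In WT thymus the SD was 0.20, larger than that of 58.0% of the tested genes. These ranks are over tested genes of all levels, and genes of a level like that of Tcf3 were not compared apart.

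Tcf12 (ENSMUSG00000032228, chr9:71842688-72111871, minus strand) encodes HEB, the partner of E2A in thymocytes. Normalized counts were 10613, 12211 and 10575 in WT thymuses 1 to 3, then 12820, 8118, 10469, 13080 and 12774 in the Atm-/- lymphomas and 12665, 6522, 12697, 7044 and 10245 in the Rag2c/c p53-/- lymphomas. The lowest values were those of Atm-/- lymphoma 2 and Rag2c/c p53-/- lymphomas 2 and 4, and with Atm-/- lymphoma 3 and Rag2c/c p53-/- lymphoma 5 a total of 5 lymphomas lay below every WT thymus. The 3 lowest libraries had an estimated 9230000, 6360000 and 13700000 reads, while Atm-/- lymphoma 4, at 11200000 reads, held the highest Tcf12 value of its group, and the part of depth was not tested. Group means differed little, with a log2 fold change of 0.02 (SE 0.238) in Atm-/- lymphomas and -0.23 (SE 0.238) in Rag2c/c p53-/- lymphomas against WT thymus.

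Tcf4 (ENSMUSG00000053477, chr18:69344146-69687967, plus strand) encodes E2-2, the E protein that plasmacytoid dendritic cells require. It had 1434, 1426 and 1682 normalized counts in WT thymus, then 1054, 2124, 1157, 1185 and 1306 in the Atm-/- lymphomas and 982, 1803, 1066, 1566 and 1522 in the Rag2c/c p53-/- lymphomas. Atm-/- lymphoma 2 stood alone above the other 4 of its group, which all lay below WT thymus, and Rag2c/c p53-/- lymphoma 2 was the highest of its own group. The same 2 lymphomas had the lowest Tcf12 values of their groups. Changes of Tcf4 on the log2 scale against WT thymus were -0.19 and -0.16 (SE 0.244 in both).

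Tcf4 is also a gene of another cell type, so markers of plasmacytoid dendritic cells were set beside it. Siglech, a defining surface marker of these cells, was 143 to 249 in WT thymus, 36 to 68 in Atm-/- lymphomas and 13 to 24 in Rag2c/c p53-/- lymphomas. In Atm-/- lymphoma 2, Siglech was 57 while Tcf4 was 2124. Over the 6 markers the summed level was 17381 to 22979, 3872 to 16014 and 3983 to 16477, most of it from Ccr9, which thymocytes express as well, and 5 of 6 had a lower mean than WT thymus in each lymphoma group. The part of these cells in the Tcf4 values was not tested. In bulk samples, fewer cells of a type and less RNA per cell cannot be told apart.

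**Figure D1:**
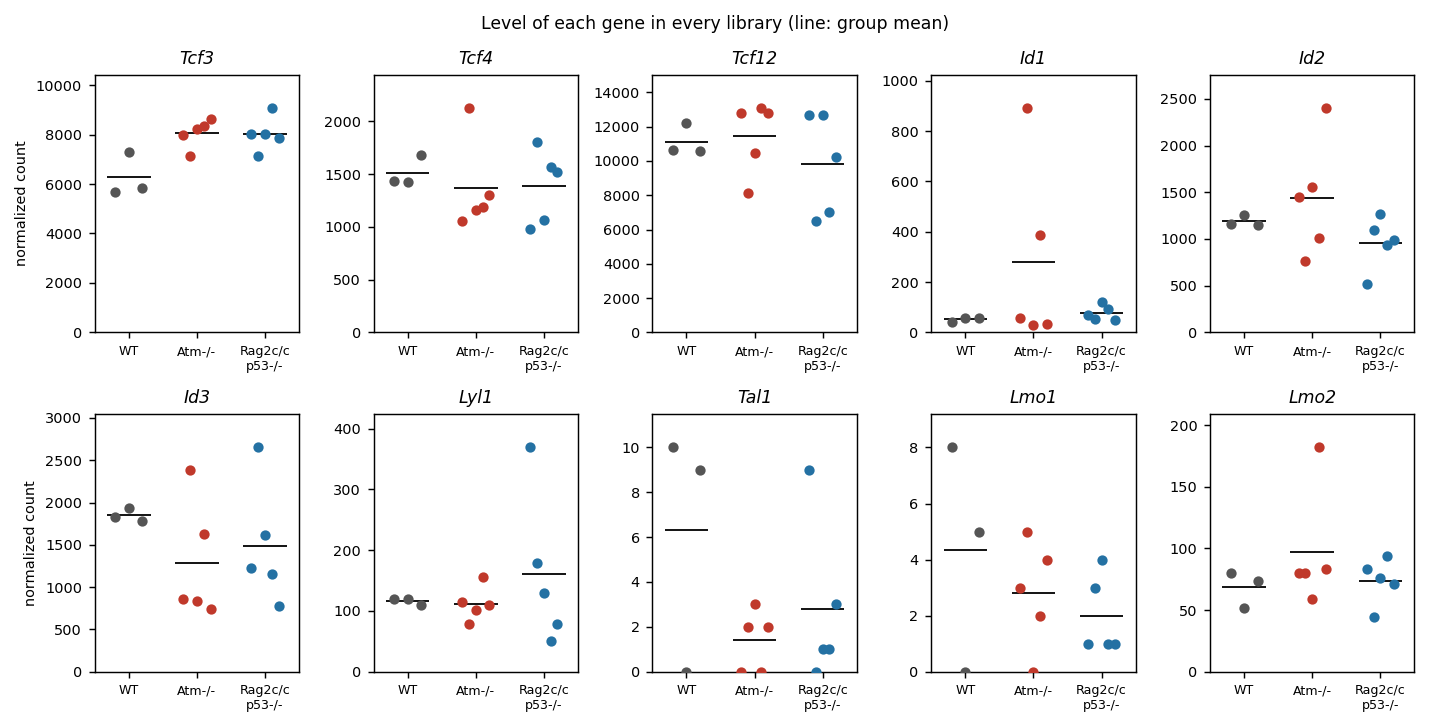
Normalized counts of the 10 genes (vertical axes, linear, from 0) in 3 WT thymuses, 5 Atm-/- lymphomas and 5 Rag2c/c p53-/- lymphomas, with each point a library in replicate order and the line the group mean. Tcf3 is high and even in the lymphomas, Id1 reaches 891 and 385 in Atm-/- lymphomas 2 and 4, Lyl1 reaches 369 in Rag2c/c p53-/- lymphoma 1, and Tal1 and Lmo1 stay at 10 or less.

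The Id genes varied more than the E protein genes. Id1 (ENSMUSG00000042745, chr2:152736251-152737410, plus strand) encodes an inhibitor induced by BMP signals and abundant in endothelium and stem cells. It was listed at 40, 58 and 59 in WT thymuses 1 to 3, at 56, 891, 29, 385 and 32 in the Atm-/- lymphomas, and at 68, 54, 120, 94 and 50 in the Rag2c/c p53-/- lymphomas. Atm-/- lymphomas 2 and 4 were 17.0 and 7.36 times the WT mean, and the other 3 lymphomas of the genotype lay between 0.554 and 1.07 times that mean.

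The SD of the log2 value of Id1 within the Atm-/- group was 2.23, larger than that of 98.0% of the tested genes. The log2 fold change against WT thymus was therefore imprecise, at 1.12 in Atm-/- lymphomas (SE 0.939, 95% confidence interval -0.90 to 3.14, adjusted p = 0.345, limma) and 0.49 in Rag2c/c p53-/- lymphomas (SE 0.939, adjusted p = 0.704). Without Atm-/- lymphoma 2 the first of these was 0.38, without lymphoma 4 it was 0.68, and without any of the other 3 it was higher, at up to 1.60. Both SEs use a spread shared by all groups, and the SD of the log2 value in Rag2c/c p53-/- lymphomas alone was 0.53.

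Id3 (ENSMUSG00000007872, chr4:136143497-136145755, plus strand) encodes the inhibitor that rises with pre-T cell receptor and T cell receptor signals in thymocytes. Its normalized counts were 1823, 1936 and 1785 in WT thymus, 854, 2382, 836, 1630 and 741 in the Atm-/- lymphomas, and 1231, 2651, 1615, 1153 and 777 in the Rag2c/c p53-/- lymphomas. WT thymuses were nearly alike, whereas 8 of 10 lymphomas lay below them all and a single library of each genotype, lymphoma 2 in both, lay above them all. The SD of the Id3 log2 value was larger than that of 70.7% of the tested genes in Atm-/- lymphomas and 64.4% in Rag2c/c p53-/- lymphomas. The log2 fold change was -0.68 in Atm-/- lymphomas (SE 0.403, 95% confidence interval -1.54 to 0.19, adjusted p = 0.184, limma) and -0.44 in Rag2c/c p53-/- lymphomas (SE 0.403, adjusted p = 0.414). Without Atm-/- lymphoma 2, the value of Id3 in Atm-/- lymphomas was -0.94, with an adjusted p of 0.048 (limma). This was the only 1 of 23 fits with an adjusted p under 0.05, and over these fits it ran up to 0.323.

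Id2 (ENSMUSG00000020644, chr12:25093801-25096092, minus strand) encodes the inhibitor that innate lymphocytes require. It had 1156, 1260 and 1147 normalized counts in WT thymus, 1452, 765, 1560, 1006 and 2401 in the Atm-/- lymphomas, and 516, 1098, 1266, 934 and 988 in the Rag2c/c p53-/- lymphomas. Atm-/- lymphoma 5 was the highest library at 2.02 times the WT mean, and Rag2c/c p53-/- lymphoma 1 was the lowest at 0.434 times that mean. For Id2 the log2 fold change was 0.17 (SE 0.335) in Atm-/- lymphomas and -0.37 (SE 0.335) in Rag2c/c p53-/- lymphomas against WT thymus, and 0.53 (SE 0.290, adjusted p = 0.270, limma) between the lymphoma groups. Nkg7, a granule gene of innate and cytotoxic lymphocytes, was 643 to 703 in WT thymus and 2 to 24 in the 10 lymphomas, and Ncr1, a defining natural killer cell marker, was 10 to 16 in WT thymus and 5 or less in every lymphoma. The summed level of the 8 markers of these cells was 3655 to 3857 in WT thymus, 4011 to 7760 in Atm-/- lymphomas and 3576 to 10653 in Rag2c/c p53-/- lymphomas, with Gzma the largest part in the lymphomas, and the part of these cells in the Id2 values was not tested.

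Within the Atm-/- group the Id genes split the same libraries. Lymphomas 2 and 4 held the highest Id1 and Id3 values of the 5 and the lowest Id2 values. Hes1, Ptcra and Notch3, chosen after their values were seen, were highest in the same 2 lymphomas. The Notch target Hes1 was 5520 and 3418 there against 211 to 1221 in the other 3, and Ptcra was 8050 and 5456 against 143 to 1134. Notch3, which encodes a Notch receptor, was 8344 and 5396 in lymphomas 2 and 4 against 521 to 3123. Notch1, which encodes another Notch receptor and was also chosen after its values were seen, did not follow this split. It was 45260, 62925, 5365, 28906 and 5481 in Atm-/- lymphomas 1 to 5, so lymphoma 1 lay above lymphoma 4. In lymphomas 1 and 5 low values skipped no whole numbers, and lymphoma 3 had an estimated 13500000 reads. Lymphomas 2 and 4 were the shallowest of the group, at an estimated 9230000 and 11200000 reads. The part of depth in the split was not tested.

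Markers of other cells differed between Atm-/- lymphomas 2 and 4. The summed level of 6 fibroblast markers (Col1a1, Col1a2, Col3a1, Pdgfra, Dcn and Lum) was 3488 in lymphoma 2 and 15853 in lymphoma 4, the lowest and the highest of the group, against 175 to 182 in WT thymus. The defining endothelial markers Cdh5 and Kdr were 2 and 0 in Atm-/- lymphoma 2, the library with the highest Id1, and 60 and 30 in lymphoma 4. Tek was 0 and Emcn was 0 in lymphoma 2, and the part of endothelial cells in the Id1 values was not tested. In the 5 Atm-/- lymphomas the 6 endothelial markers summed to 3194 to 6189, nearly all of it Pecam1, which hematopoietic cells express, and 6 myeloid markers summed to 6960 to 13481 against 3480 to 4213 in WT thymus. In the Rag2c/c p53-/- lymphomas the fibroblast, endothelial and myeloid sums were 581 to 1945, 1830 to 5255 and 4127 to 8919.

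**Figure D2:**
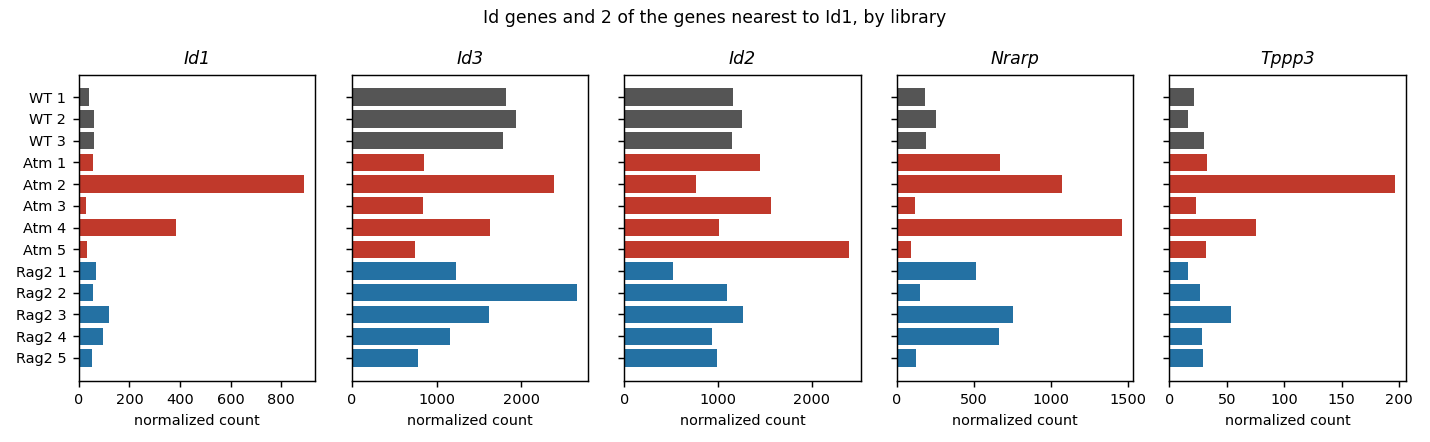
Normalized counts (horizontal axes, linear, from 0) of Id1, Id3 and Id2 and of 2 of the genes with the profile nearest to Id1, Nrarp and Tppp3, in each of 13 libraries, with WT thymus in grey, Atm-/- lymphomas in red and Rag2c/c p53-/- lymphomas in blue. Atm-/- lymphomas 2 and 4 hold the highest Id1 values (891 and 385) and the lowest Id2 values of their group (765 and 1006).

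Id1 was the only tested gene of the 10 whose log2 value had an SD of at least 1 over the 13 libraries (1.40). The 3 tested genes with the nearest centred log2 profile, by root mean square difference over these libraries, were Tppp3 (0.70), Nrarp (0.81) and Gm5864 (0.81). Nrarp, a target and inhibitor of Notch signalling, was 184, 253 and 192 in WT thymus, 669, 1073, 116, 1461 and 91 in the Atm-/- lymphomas, and 511, 149, 756, 663 and 127 in the Rag2c/c p53-/- lymphomas. Tppp3 was 196 and 75 in Atm-/- lymphomas 2 and 4 and 16 to 54 in every other library. This likeness describes these 13 libraries and has no test.

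Lyl1 (ENSMUSG00000034041, chr8:84701457-84704715, plus strand) was even in WT thymus, at 120, 120 and 110, and lay at 114, 78, 102, 156 and 110 in the Atm-/- lymphomas. In the Rag2c/c p53-/- lymphomas it was 369, 179, 129, 50 and 79, so lymphomas 1 to 3 lay above every WT thymus and lymphomas 4 and 5 lay below every WT thymus. Lymphoma 1 reached 3.16 times the WT mean and lymphoma 4 lay at 0.429 times that mean. The SD of the log2 value was 1.10 in this group, larger than that of 84.1% of the tested genes, and 0.36 in the Atm-/- lymphomas. That rank takes in genes of all levels, and genes as low as Lyl1 were not compared apart.

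Lyl1 had a log2 fold change of 0.13 in Rag2c/c p53-/- lymphomas (SE 0.504, 95% confidence interval -0.95 to 1.21, adjusted p = 0.856, limma), and it was -0.25 without lymphoma 1. In Atm-/- lymphomas it was -0.09 (SE 0.504, adjusted p = 0.895, limma). Each SE uses a spread shared by all groups. Lyl1 overlaps Nfix on the opposite strand, and the strand setting of the counting is not given in the sources used here. Nfix was 308 in Rag2c/c p53-/- lymphoma 1 and 656 in lymphoma 4, the libraries with the highest and the lowest Lyl1.

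Lmo2 (ENSMUSG00000032698, chr2:103957986-103981878, plus strand), a gene of stem cells, erythroid cells and endothelium, was low in all groups. It was 80, 52 and 74 in WT thymus, 80, 80, 59, 182 and 83 in the Atm-/- lymphomas, and 83, 44, 76, 94 and 71 in the Rag2c/c p53-/- lymphomas. Atm-/- lymphoma 4 stood apart at 2.65 times the WT mean, and the other 12 libraries ran from 44 to 94. That library also had the highest values of Cdh5 (60), Emcn (43), Cldn5 (17) and Tek (8) among the 13. These were picked from 6 endothelial markers after their values were seen, and the part of endothelial cells in its Lmo2 value was not tested. The log2 fold change of Lmo2 was 0.40 (SE 0.385) in Atm-/- lymphomas, 0.15 without lymphoma 4, and 0.08 (SE 0.385) in Rag2c/c p53-/- lymphomas.

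Tal1 (ENSMUSG00000028717, chr4:115056426-115071755, plus strand) and Lmo1 (ENSMUSG00000036111, chr7:109138572-109170308, minus strand) did not reach the filter of 10 normalized counts in 3 libraries and were not tested. Tal1 was 10, 0 and 9 in WT thymus, 0, 2, 3, 0 and 2 in the Atm-/- lymphomas, and 9, 0, 1, 1 and 3 in the Rag2c/c p53-/- lymphomas. Lmo1 was 8, 0 and 5 in WT thymus, 3, 5, 0, 2 and 4 in the Atm-/- lymphomas, and 1, 3, 4, 1 and 1 in the Rag2c/c p53-/- lymphomas. No lymphoma lay above the highest WT thymus for either gene. A 0 in the shallowest libraries allows a level of up to 9.72 (WT thymus 2) or 10.1 (Rag2c/c p53-/- lymphoma 2) normalized counts, the worth of 3 reads, a limit of counting error only.

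Over the tested genes, 0 of 8 were called in Atm-/- lymphomas against WT thymus, where 29.5% of all 15872 tested genes were called. In Rag2c/c p53-/- lymphomas against WT thymus 0 of 8 were called against 23.6% of all genes, and between the lymphoma groups 0 of 8 against 7.84%. A call required an adjusted p under 0.05 (limma, Benjamini-Hochberg over all tested genes), a 2-fold change and a mean of 10 in one of the groups. By adjusted p alone 1, 1 and 0 of the 8 passed, against 44.6%, 37.3% and 11.6% of all genes, and the same counts held at an unadjusted p under 0.05, against 52.8%, 47.3% and 26.2%. In each case the gene was Tcf3.

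The median absolute log2 fold change of the 8 genes was 0.28, 0.30 and 0.25 in the 3 comparisons, beside 0.77, 0.67 and 0.35 over all tested genes. In 0 of the 8 genes were the groups free of overlap, a separation that 51.3% of all tested genes showed between Atm-/- lymphomas and WT thymus, 43.9% between Rag2c/c p53-/- lymphomas and WT thymus, and 8.33% between the lymphoma groups. Single lymphomas departed further. Of the 80 values of these genes in lymphomas, 68 lay within 2-fold of the WT mean, 6 were at least 2-fold above it, and 6 were at or below 0.5 times that mean. Both comparisons with WT thymus share the same 3 thymuses.

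**Figure D3:**
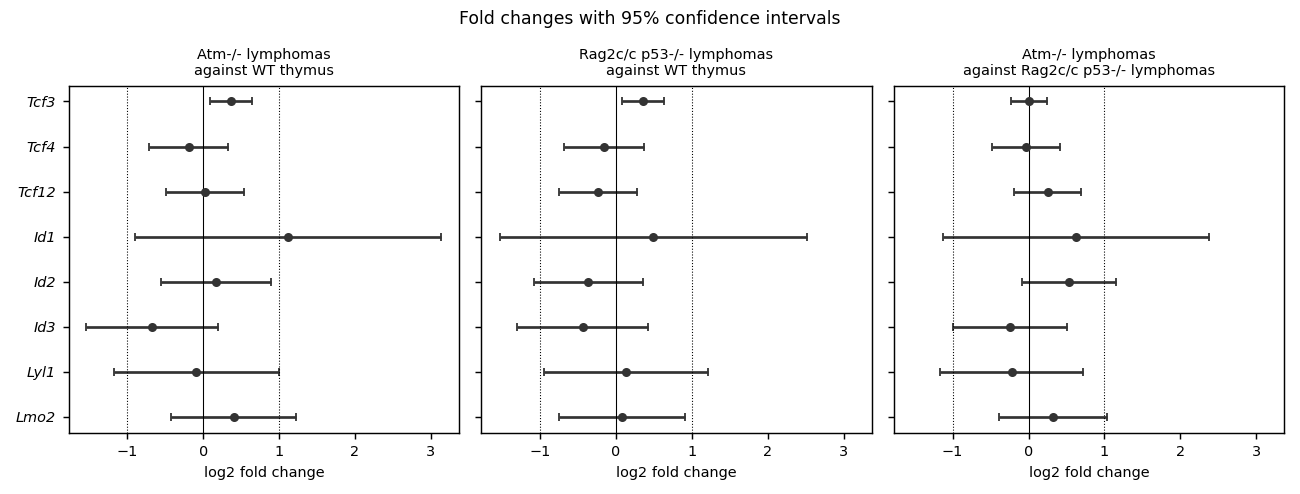
Log2 fold change (horizontal axes) of the 8 tested genes with 95% confidence intervals (bars) from limma, in 3 comparisons. Dotted lines mark a 2-fold change. The Tcf3 intervals against WT thymus lie above 0 and below 1, every other interval crosses 0, and Id1 has the widest.

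Levels of different genes were compared only per kb of exon, with lengths from GENCODE vM21, a later annotation than the one counted. In WT thymus the order per kb of exon union was Tcf3 (1552 ± 219), Id3 (1032 ± 43.9), Tcf12 (717 ± 60.1) and Id2 (487 ± 25.8 normalized counts per kb, SD, n = 3), with no overlap between these neighbours. Far lower came Lyl1 (64.8 ± 3.21), Tcf4 (55.3 ± 5.32), Id1 (45.1 ± 9.22) and Lmo2 (31.7 ± 6.81 per kb). Lyl1 and Tcf4 overlapped, as did Id1 and Lmo2. Lmo1 (2.79 ± 2.60) and Tal1 (1.45 ± 1.26 per kb) were last and overlapped.

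In lymphomas Tcf3 kept the highest level, at 1997 ± 143 per kb in Atm-/- lymphomas and 1984 ± 172 in Rag2c/c p53-/- lymphomas (SD, n = 5), while Id3 (719 ± 395 and 829 ± 400 per kb) overlapped Tcf12 (737 ± 138 and 633 ± 191). The order depends on the length used. Per kb of the longest coding transcript, Tcf12 (1767 ± 148) lay above Id3 (1446 ± 61.5) and Tcf4 (177 ± 17.0) above Lyl1 (64.8 ± 3.21) in WT thymus.

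Summed per kb of exon union, the 3 E protein genes came to 2324 ± 277 in WT thymus (SD, n = 3), 2785 ± 255 in Atm-/- lymphomas and 2668 ± 245 in Rag2c/c p53-/- lymphomas (SD, n = 5). The 3 Id genes came to 1564 ± 72.6, 1549 ± 531 and 1290 ± 457 per kb. The ratio of the E sum to the Id sum ranged from 1.40 to 1.60 in WT thymus, from 0.980 to 2.54 in Atm-/- lymphomas and from 1.14 to 3.02 in Rag2c/c p53-/- lymphomas. In 4 of 5 lymphomas of each genotype the ratio lay above every WT thymus, and in lymphoma 2 of each genotype, libraries of an estimated 9230000 and 6360000 reads, it lay below every WT thymus. These sums stand for RNA and carry no test.

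**Figure D4:**
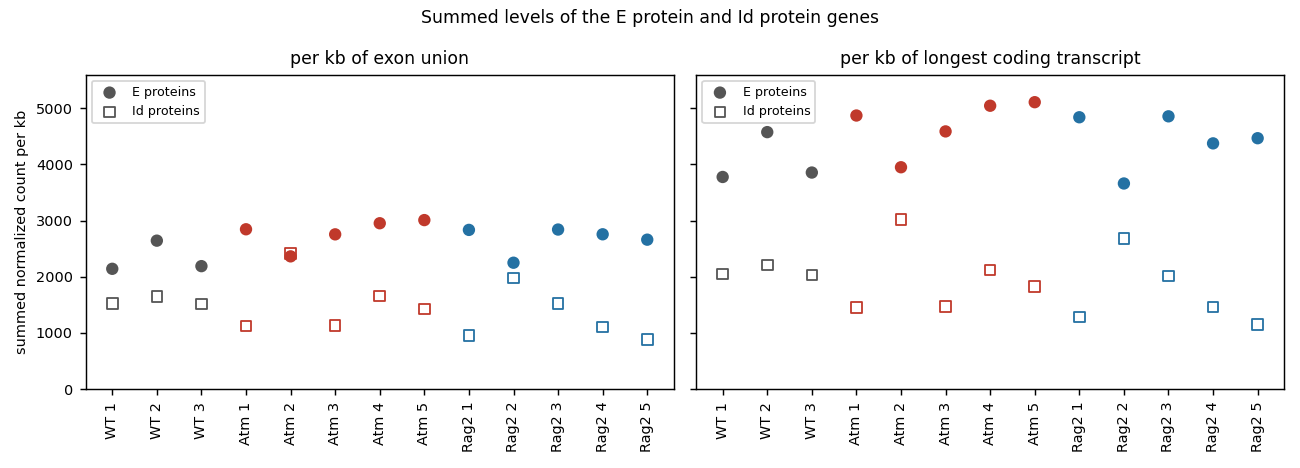
Summed normalized counts per kb (vertical axis) of the E protein genes (filled circles) and of the Id genes (open squares) in each library, with lengths taken as the exon union (left) or the longest coding transcript (right), WT thymus in grey, Atm-/- lymphomas in red and Rag2c/c p53-/- lymphomas in blue. The Id sum comes closest to the E sum in lymphoma 2 of each genotype, and exceeds it in Atm-/- lymphoma 2 per kb of exon union.

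The genes that work with this family were read from 3 lists chosen with earlier results of these data known. Of 14 complex partners and other family members (9 tested, not Id4, Tal2, Lmo3, Ldb2 and Gata2), 1 was called higher and 0 lower in Atm-/- lymphomas, where 12.6% of all tested genes were called higher and 17% lower. In Rag2c/c p53-/- lymphomas 1 was called higher and 1 lower, beside 9.77% and 13.9% of all genes. Ssbp4, which encodes a single-stranded DNA-binding protein that stabilizes LDB1, rose in both. It was 1861, 2781 and 1875 in WT thymus, 5417 to 7609 (median 6358) in Atm-/- lymphomas and 3772 to 6049 (median 4826) in Rag2c/c p53-/- lymphomas, with log2 fold changes of 1.58 and 1.13. Both calls of Ssbp4 held in all 22 alternative fits.

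Gata1, the erythroid and mast cell GATA factor, fell in Rag2c/c p53-/- lymphomas. It was 88, 75 and 76 in WT thymus, 7, 41, 18, 46 and 21 in these lymphomas, and 210, 114, 104, 100 and 198 in the Atm-/- lymphomas, with no overlap between the 3 groups. The log2 fold change was -1.80 (SE 0.521, adjusted p = 0.016, limma) against WT thymus, a call lost without WT thymus 1 or 3 (highest adjusted p 0.063), and 2.58 (SE 0.451, adjusted p = 0.0028) between Atm-/- and Rag2c/c p53-/- lymphomas, the only call of this list in that comparison. Erythroid markers overlapped between all groups. The 6 of them summed to 936 to 2134 in WT thymus, 880 to 6166 in Atm-/- lymphomas and 795 to 4292 in Rag2c/c p53-/- lymphomas. Markers of mast cells summed to 188 to 284, 50 to 686 and 43 to 482 in the same order of groups, and those of megakaryocytes to 71 to 76, 130 to 277 and 81 to 232.

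Of 14 E protein targets in thymocytes, all tested, 0 were called higher and 4 lower in Atm-/- lymphomas, and 0 higher and 2 lower in Rag2c/c p53-/- lymphomas. These are 28.6% and 14.3% of the list, near and below the 29.5% and 23.6% called over all tested genes. The 4 included Rag1 (log2 fold change -3.46), Rag2 (-4.04) and Dntt (-1.07), and the 2 were Rag1 (-2.24) and Rag2 (-3.22), whose own gene is altered in these mice. Rag1 and Rag2 encode the recombinase, and Dntt encodes the terminal transferase that adds bases at V(D)J joints. Rag1 was 48182, 70834 and 51074 in WT thymus, 2383 to 7116 in Atm-/- lymphomas and 5620 to 23493 in Rag2c/c p53-/- lymphomas. The part of Tcf3 and Tcf12 levels in these Rag1 values was not tested.

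Calls of Rag1 and Rag2 held in all 22 alternative fits, whereas that of Dntt was lost without WT thymus 2 and without Atm-/- lymphoma 1 or 5. Without WT thymus 2, 2 genes of this list were called in Atm-/- lymphomas. Between the lymphoma groups the only call among these targets was Il7r, the interleukin 7 receptor gene, at 2860 to 7078 in Atm-/- and 188 to 1967 in Rag2c/c p53-/- lymphomas (log2 fold change 2.52, SE 0.562, adjusted p = 0.011, limma), which is 7.14% of the list beside 7.84% of all tested genes. Over the 14 targets the median log2 fold change against WT thymus was -0.48 and -0.53, beside -0.02 over all tested genes in each.

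Of 10 TAL1, LMO2 and LYL1 target genes (9 tested), 1 was called higher and 6 lower in Atm-/- lymphomas, and 0 higher and 5 lower in Rag2c/c p53-/- lymphomas. Over all tested genes 12.6% were called higher and 17% lower in the first comparison, and 9.77% and 13.9% in the second. These 9 genes had a median log2 fold change of -1.49 and -1.62 against WT thymus. The higher gene was Aldh1a2, a retinaldehyde dehydrogenase gene, with a log2 fold change of 2.04 from only 4, 6 and 4 normalized counts in WT thymus. The lowest in Atm-/- lymphomas were Kit (-3.27), the stem cell factor receptor gene, Bcl11a (-3.08), a factor of early progenitors and B cells, and Arid5b (-2.68), a leukemia-associated chromatin gene. Hhex (-1.41) and Mef2c (-1.49), which encode progenitor and lymphoid factors, had the smallest called falls.

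In Rag2c/c p53-/- lymphomas the 5 were Bcl11a (-3.98), Arid5b (-3.82), Mef2c (-2.74), Nfe2 (-2.32) and Hhex (-1.62). Nfe2 encodes an erythroid and megakaryocyte factor. Bcl11a was 187, 185 and 235 in WT thymus, 31, 11, 36, 15 and 33 in the Atm-/- lymphomas and 14, 20, 10, 13 and 6 in the Rag2c/c p53-/- lymphomas, without overlap. B cells also express Bcl11a and Mef2c. The 6 B cell markers together summed to 1011 to 1223, 181 to 934 and 102 to 479 in the 3 groups, and their part in these falls was not tested.

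Several calls of this list rested on few libraries. In Rag2c/c p53-/- lymphomas the call of Hhex was lost without WT thymus 1 or 3, with an adjusted p of up to 0.063. In Atm-/- lymphomas 7 genes were called in all, 3 without WT thymus 1 and 4 without WT thymus 3, while Aldh1a2, Arid5b and Bcl11a were called in all 22 alternative fits. Kit was lost in 16 of 22, with an adjusted p of up to 0.121, and its groups overlapped, at 552, 445 and 555 in WT thymus against 327, 9, 16, 11 and 648 in the Atm-/- lymphomas. Between Atm-/- and Rag2c/c p53-/- lymphomas 2 genes were called higher, Aldh1a2 (1.62) and Mef2c (1.26), and 1 lower, Kit (-3.65), beside 3.51% and 4.33% of all tested genes, and each was lost in at least 11 of 22 alternative fits.

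**Figure D5:**
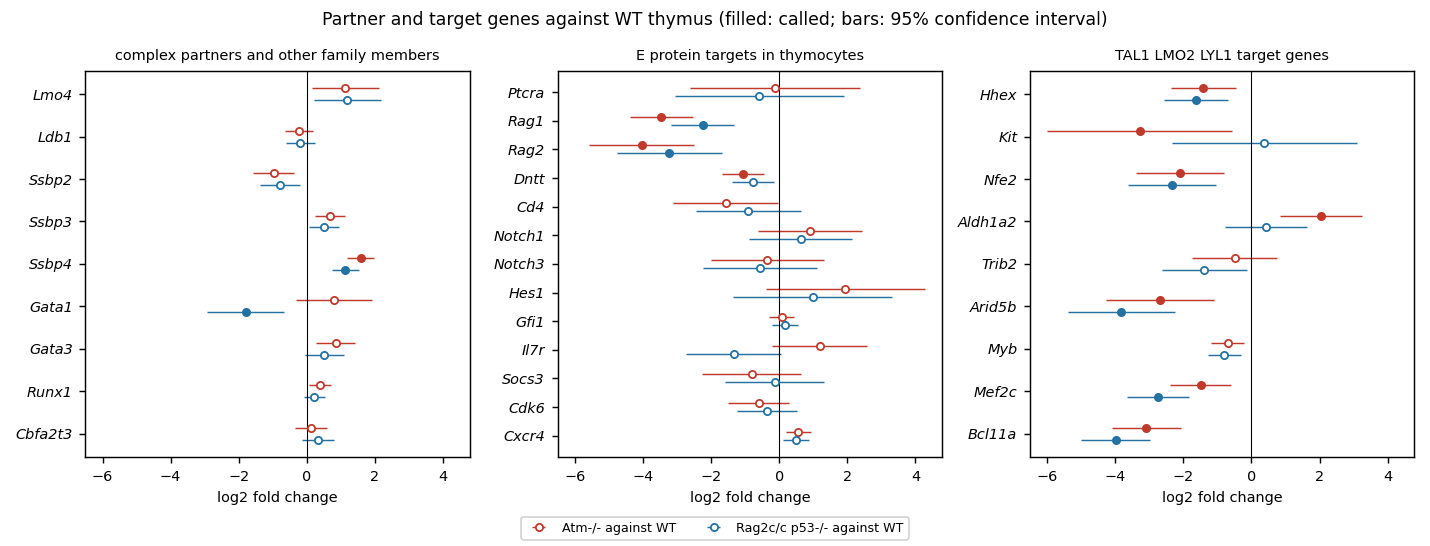
Log2 fold change against WT thymus (horizontal axes) of the tested genes of 3 lists (all but 1), in Atm-/- lymphomas (red) and Rag2c/c p53-/- lymphomas (blue), with 95% confidence intervals from limma as bars and filled points for called genes. Rag1, Rag2, Arid5b, Mef2c, Bcl11a, Hhex and Nfe2 are called lower in both groups and Ssbp4 is called higher in both.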

How the data were processed

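RNA from single-cell suspensions was made into stranded mRNA libraries. Per the labels the authors used bcl2fastq 1.8.3, STAR 2.4.0g1 on GRCm38, Picard and DESeq2 1.6.3. The methods, written for other tumors and the WT thymuses, also state duplicate removal, uniquely mapped reads and counting per Ensembl gene with HTSeq-count, and were taken to hold here. The deposited values are scores, normalized counts rounded to whole numbers by the authors, a unit read from the values. Count models therefore do not apply. The authors' fold changes as ratio and as log2, their p-values, group means and dispersions were deposited too and not used.

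Genes reaching 10 in 3 or more libraries were kept (15872), and log2(value + 1) was modelled over all 13 libraries by group with limma 3.58.1 (R 4.3.3), trend and robust moderation, which was checked on simulated data. On this scale folds of low genes are understated. Confidence intervals are at 95%. The spread of a gene was shared by all groups in a fit, so an SE does not measure the precision of a single group. Per-library and summed levels had no test. The members and lists were chosen with earlier results of these data known. The genes named were the 10 members, called genes of the 3 lists (the 3 highest and 3 lowest where more than 6 were called), the 3 genes nearest to a member with an SD of at least 1, and cell type markers. Genes named beyond this are said to be chosen after their values were seen, and single markers were so chosen. Some list and marker genes count in the totals but are not reported here by name. Alternatives covered scaling, pseudocount, filter, fold threshold, groups fitted, moderation and leaving out each library. Leaving out the 2 shallowest libraries was added after seeing the data.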

Additional observations from a re-analysis of the deposited data

Results flagged for a closer look

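Tcf4 in Atm-/- lymphoma 2 (2124 normalized counts) and Lmo2 in Atm-/- lymphoma 4 (182) lay far from the other 4 lymphomas of their group by Dixon's test. They were the only 2 of 48 pairs of gene and lymphoma group, over 24 genes, and chance gives about 1 in 20.

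The change from WT thymus differed between the Atm-/- and the Rag2c/c p53-/- lymphomas for 5 partner or target genes, by the limma contrast of the lymphoma groups, which equals the difference of both changes. They were 1 of 9 tested partners, 1 of 14 E protein targets and 3 of 9 tested TAL1, LMO2 and LYL1 targets. Over all tested genes 7.84% were called in this contrast. The differences on the log2 scale were 2.58 for Gata1, 2.52 for Il7r, 1.62 for Aldh1a2, 1.26 for Mef2c and -3.65 for Kit. Those of Gata1 and Il7r passed in all 22 alternative fits, with adjusted p of at most 0.011 and 0.038 (limma, Benjamini-Hochberg). For the 8 tested family members no difference passed, and Tal1 and Lmo1 were not tested.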

How the results depend on the processing

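With adjusted p alone in place of the 2-fold rule, 1 of the 8 tested members was called in Atm-/- lymphomas and 1 in Rag2c/c p53-/- lymphomas against WT thymus, Tcf3 in both, and 0 between the lymphoma groups. Under the other alternatives 0 members were called in each comparison. Of 528 log2 fold changes of members under alternatives, 25 turned their sign, and none of these passed the test. In Atm-/- lymphomas against WT thymus, Tcf12 ran from -0.032 to 0.14 with single libraries left out, Id2 was -0.046 without Atm-/- lymphoma 5 (range up to 0.37) and Lyl1 was 0.028 without Atm-/- lymphoma 2 (range from -0.22). In Rag2c/c p53-/- lymphomas against WT thymus, Lyl1 was -0.25 without lymphoma 1 (range up to 0.46), and Lmo2 was -0.11 without WT thymus 2 (range up to 0.25). Between the lymphoma groups, Tcf3 was -0.0022 with recomputed size factors, -0.0039 with equal totals and -0.030 without the shallowest libraries (single libraries left out, -0.030 to 0.057). Tcf4 was 0.071 without the shallowest libraries (single libraries left out, -0.20 to 0.071), Id1 was -0.12 without Atm-/- lymphoma 2 (range up to 1.11) and Lyl1 was 0.16 without Rag2c/c p53-/- lymphoma 1 (range from -0.56). Causes were not tested.

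Counts among the lists moved by over 1.5 times in these cases. Among partners in Atm-/- lymphomas 1 call became 2 or 3 without single libraries and 5 of 9 tested by adjusted p alone. By that rule 44.6% of all tested genes passed in this comparison. In Rag2c/c p53-/- lymphomas 2 partner calls became 1 without WT thymus 1 or 3. There 2 E protein target calls became 4 of 14 by adjusted p alone, which 37.3% of all tested genes passed. Between lymphoma groups 1 E protein target call became 2 under both scalings, a pseudocount of 4, and without the shallowest libraries, Atm-/- lymphoma 2 or Rag2c/c p53-/- lymphoma 2. The 3 TAL1, LMO2 and LYL1 target calls there became 0 with no filter, with only the 2 groups fitted, and without WT thymus 1 or 3, Atm-/- lymphoma 4 or Rag2c/c p53-/- lymphoma 1, 4 or 5.

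No paired analysis was possible because each library came from a different mouse. The numbers of the lymphomas come only from their order of accession and pair nothing. Group means of members and of the family sums moved by less than 1 SD with both other scalings. The mean of Id1 in Atm-/- lymphomas was 125.5 without lymphoma 2 against 279 with it. At 10 or less in every library, the means of Tal1 and Lmo1 also moved by over 1.5 times in some groups with a single library left out. The depth of 2 libraries, with 6360000 and 6660000 reads estimated, limits statements on Tal1 and Lmo1, and against WT thymus the intervals of Id1, Id2, Id3, Lyl1 and Lmo2 reach past a 2-fold change in at least 1 lymphoma group.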
